A study of Homo sapiens with 12 samples.

Results

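The unfolded protein response and protein folding in the endoplasmic reticulum (ER) were described here through 44 genes in human prostate cancer cell lines. The genes were picked by symbol, and all 44 were found among the 57992 entries of the gene count table. All 44 also passed the filter on low counts, the lowest count of any of them in a library being 26. Poly(A) RNA of 3 lines was compared, with 3 biological replicates of each line. MR49F, the only line labelled resistant to enzalutamide that was analysed, is an antiandrogen-resistant derivative of LNCaP. C4-2, labelled sensitive, is a subline of LNCaP known for growing without androgen. LNCaP, also labelled sensitive, is the androgen-responsive parent of both. The labels give no medium, passage or drug treatment, so whether enzalutamide was present at harvest is not known, and C4-2R was not analysed here. Each group is 1 cell line, so a difference from LNCaP cannot be told apart from any other difference between that line and LNCaP.

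The ER folds, glycosylates and oxidises secreted and membrane proteins, and it keeps chaperones, disulfide isomerases and a disposal route, ER-associated degradation (ERAD), for this. When unfolded proteins build up, 3 sensors in its membrane respond. IRE1 (gene ERN1) splices XBP1 mRNA so that it encodes an active transcription factor, ATF6 is cut in the Golgi to release one, and PERK (gene EIF2AK3) phosphorylates the translation factor eIF2 alpha, which slows general translation and favours that of ATF4. Luminal prostate cells are secretory, and in them androgen signalling is known to touch this response. Gene counts show neither XBP1 splicing nor ATF6 cleavage nor eIF2 alpha phosphorylation, and in bulk cultures fewer cells expressing a gene and less of its RNA per cell cannot be told apart.

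Total gene counts lay between 6990461 and 9375912 per library, except C4-2 replicate 1, which had 42770072. Levels are in CPM, with library sizes scaled by TMM, and the ± values are SDs over 3 replicates. Luminal prostate markers, 11 genes in all, were detected in all 3 lines. Their summed level was 9722 ± 110 CPM in MR49F, 8193 ± 552 CPM in C4-2 and 6426 ± 87.7 CPM in LNCaP, and KLK3 alone made up 43.4% of it. In C4-2 against LNCaP, 4 of these markers were higher and 3 lower, with a median log2 fold change of -0.03. In MR49F against LNCaP, 6 were higher and 1 lower, with a median of 0.35. Markers of other cell types were low, with summed levels of 8.61 ± 0.884 CPM in MR49F, 24.2 ± 2.63 CPM in C4-2 and 28.1 ± 1.94 CPM in LNCaP for 8 fibroblast genes, 0.801 ± 0.033 CPM in MR49F, 3.09 ± 0.267 CPM in C4-2 and 3.92 ± 0.804 CPM in LNCaP for 5 endothelial genes and 0.374 ± 0.325 CPM in MR49F, 1.31 ± 0.434 CPM in C4-2 and 0.304 ± 0.159 CPM in LNCaP for 6 immune genes. COL1A2, PDGFRA, CDH5 and CD3E had no counts in any library, whereas COL1A1 was at 5.72 ± 0.125 CPM in MR49F, 16.5 ± 2.76 CPM in C4-2 and 25.4 ± 2.06 CPM in LNCaP. Of 8 markers of plasma cells and other secretory cells, summing to 113 ± 13.1 CPM in MR49F, 96.4 ± 12.6 CPM in C4-2 and 70.6 ± 0.98 CPM in LNCaP, SDC1 made up most, and JCHAIN, CPA1 and INS had no counts.

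More of the 44 genes were higher than lower in both derivatives when set against LNCaP. MR49F against LNCaP had 23 genes higher, 3 lower and 18 that did not pass the test (edgeR quasi-likelihood test, adjusted p under 0.05 over all tested genes). Over all 15407 tested genes, 24.1% were higher and 22.8% lower in MR49F. In C4-2 against LNCaP, 30 were higher, 5 were lower and 9 did not pass, beside 26.2% higher and 23.5% lower over all tested genes. In MR49F against C4-2, 12 were higher, 19 were lower and 13 did not pass, beside 29.9% higher and 31.1% lower over all tested genes. The median log2 fold change of the 44 genes was 0.28 for MR49F and 0.46 for C4-2, each set against LNCaP, and -0.17 for MR49F set against C4-2, where the medians of all tested genes were 0.01, -0.001 and -0.001. The 3 comparisons share libraries and are not independent of each other.

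Most of these differences were modest. Tested against a 1.5-fold change, 3 of the genes were still called higher in MR49F than in LNCaP (MANF, EDEM1 and PDIA6) and none lower, beside 6.41% higher and 7.38% lower over all tested genes in that test, so that the share of the 44 genes called higher was close to that of all genes. In C4-2 against LNCaP 9 were called higher, with ERO1A, PDIA5, PPP1R15A and DNAJB9 at the largest log2 fold changes, and none lower, beside 9.4% higher and 4.36% lower over all tested genes. In MR49F against C4-2 that test called 1 of the 44 genes higher and 7 lower, beside 8.42% higher and 13.6% lower over all tested genes. Against LNCaP, 1 gene had an unadjusted p under 0.05 in this edgeR test for being lower in MR49F, and 1 for being lower in C4-2. Without TMM scaling factors, an alternative chosen after seeing the data, 20 were higher and 6 lower in MR49F against LNCaP, and over all genes 2855 were higher and 4284 lower in place of 3719 and 3516. The genes called lower in MR49F against LNCaP also numbered 6 with the 6 libraries of those lines alone, 6 without C4-2 replicate 1 and 5 without C4-2 replicate 2. Those called lower in C4-2 against LNCaP numbered 3 without C4-2 replicate 1, LNCaP replicate 2 or LNCaP replicate 3. Without the deep C4-2 replicate 1, MR49F had 24 and C4-2 had 30 genes higher than LNCaP, and 14 were higher and 21 lower in MR49F against C4-2.

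Exons of 23 of the genes overlap an exon of another annotated gene. Of these 23, 17 were higher and 0 lower in MR49F against LNCaP, and 20 were higher and 0 lower in C4-2 against LNCaP. Behind these counts of 0 from edgeR, and those given for the branches and promoter matches, 0 genes had an unadjusted p under 0.05 in that direction, and DESeq2 and limma-voom also called 0. Their median log2 fold change was 0.41 in MR49F and 0.59 in C4-2. Of the 21 genes free of such overlap, 6 were higher and 3 lower in MR49F, with a median of 0.05, and 10 were higher and 5 lower in C4-2, with a median of 0.24. In MR49F the share called higher was 73.9% with overlap and 28.6% without, the second being close to the 24.1% of all tested genes, and in C4-2 it was 87.0% with overlap and 47.6% without. The part of overlapping genes in the counts was not tested. The libraries came from a stranded kit, but the strand setting of the counting is not given in the sources used here.

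**Figure D1:**
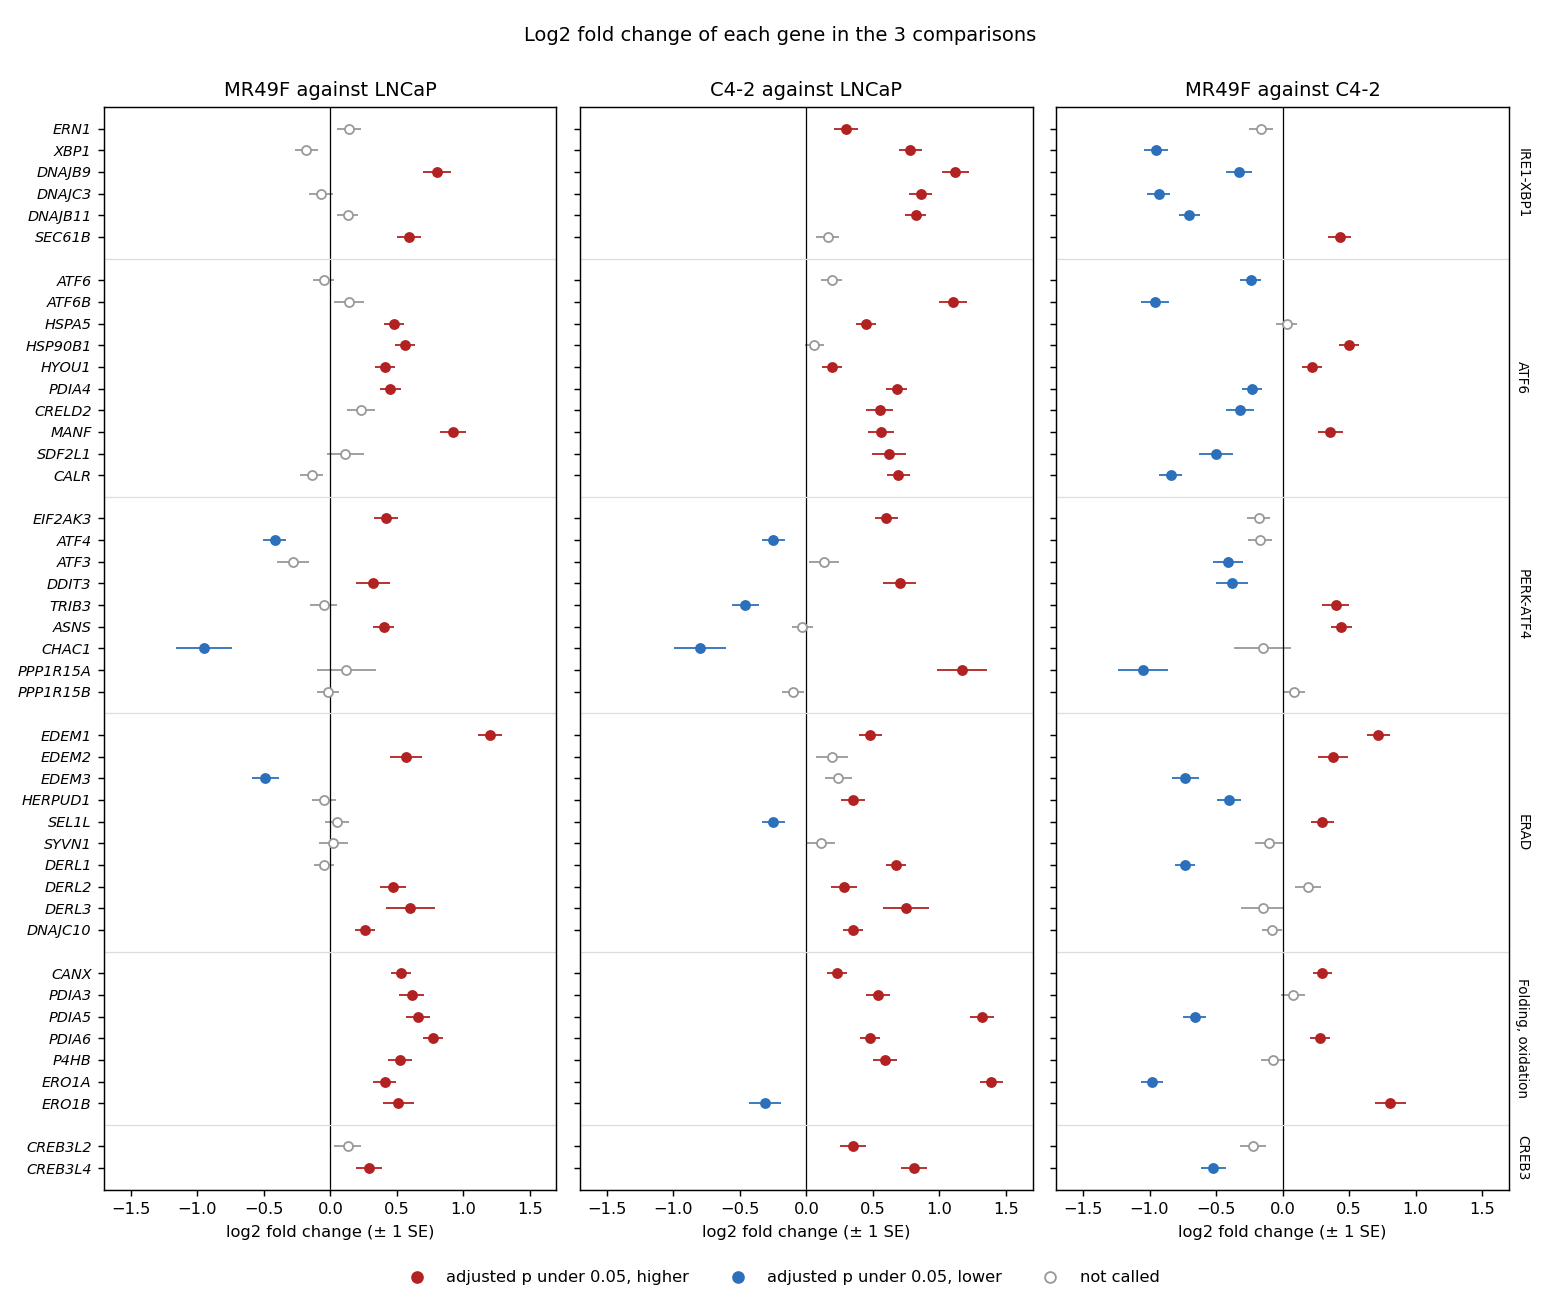
Log2 fold change (x axis, error bars 1 SE) of each of the 44 genes (rows, grouped by branch), with MR49F set against LNCaP at the left, C4-2 set against LNCaP in the middle and MR49F set against C4-2 at the right. Filled red points were called higher and filled blue points lower at an adjusted p under 0.05, and open points were not called, giving 23 higher and 3 lower in the first panel, 30 and 5 in the second, and 12 and 19 in the third.

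The response reaches many of these genes through short promoter elements, and the stretches that carry them are shown because ATF6, XBP1 and ATF4 are known to act through such elements. Promoters were taken from RefSeq (GRCh38.p14) as windows of 300 bases, 250 before and 50 after an annotated start, and 41 of the 44 genes matched, with 54 windows. The ER stress response element (ERSE) was searched on both strands as CCAAT, 9 bases of any kind, then CCACG, and was found for 8 genes. It occurred in 27 of 35116 windows of the whole table, or 0.0769%, and it was defined from promoters of this kind in the first place. ERSE-II, searched as ATTGG, 1 base of any kind, then CCACG, was found for HYOU1, HERPUD1 and SDF2L1 and in 0.0541% of all windows. The core of the unfolded protein response element, TGACGTG, was found for DNAJC10 and HYOU1 and in 1.97% of all windows, and in HYOU1 it overlaps an ERSE-II match. The core of the ATF4 element, searched as TGATG, 1 base of any kind, then AA, was found for PPP1R15B, ATF3, ASNS, CREB3L2, CHAC1 and HERPUD1 and in 3.62% of all windows. A match is a description of letters and not evidence of binding.

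The 150 bases before the start of HSPA5 are shown first, since HSPA5 is the classical readout of the response, and then a selection of matches with up to 20 bases on each side: 1 ERSE or ERSE-II match for each gene that has one (both for HSP90B1), and the ATF4 cores of CHAC1, ASNS and ATF3. Each sequence runs 5′ to 3′ on the strand of its gene and capitals mark the match.
HSPA5 upstream stretch with ERSE at chr9:125241344-125241493, minus strand: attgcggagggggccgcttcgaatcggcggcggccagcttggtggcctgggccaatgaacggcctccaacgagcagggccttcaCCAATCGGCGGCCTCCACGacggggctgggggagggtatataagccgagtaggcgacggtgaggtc
HSP90B1 ERSE at chr12:103930196-103930254, plus strand: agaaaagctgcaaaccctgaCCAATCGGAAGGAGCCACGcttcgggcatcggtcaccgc
HSP90B1 ERSE at chr12:103930301-103930359, plus strand: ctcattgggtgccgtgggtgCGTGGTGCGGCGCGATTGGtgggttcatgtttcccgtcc
CALR ERSE at chr19:12938364-12938422, plus strand: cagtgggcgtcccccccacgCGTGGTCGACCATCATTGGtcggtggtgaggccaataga
CANX ERSE at chr5:179698758-179698816, plus strand: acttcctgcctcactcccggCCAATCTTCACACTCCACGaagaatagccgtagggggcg
PDIA6 ERSE at chr2:10812833-10812891, minus strand: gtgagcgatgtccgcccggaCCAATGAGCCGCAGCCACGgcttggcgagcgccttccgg
CRELD2 ERSE at chr22:49918534-49918592, plus strand: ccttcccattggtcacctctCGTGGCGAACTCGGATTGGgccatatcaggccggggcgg
XBP1 ERSE at chr22:28800583-28800641, minus strand: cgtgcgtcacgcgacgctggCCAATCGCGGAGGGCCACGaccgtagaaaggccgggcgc
ERO1B ERSE at chr1:236282163-236282208, minus strand: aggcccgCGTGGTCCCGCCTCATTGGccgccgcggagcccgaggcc
HYOU1 ERSE-II at chr11:119057254-119057304, minus strand: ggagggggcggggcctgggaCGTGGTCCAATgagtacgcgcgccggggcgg
HERPUD1 ERSE-II at chr16:56932005-56932055, plus strand: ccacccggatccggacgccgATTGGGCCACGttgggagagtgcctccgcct
SDF2L1 ERSE-II at chr22:21642094-21642144, plus strand: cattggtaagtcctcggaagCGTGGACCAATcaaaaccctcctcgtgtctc
CHAC1 ATF4 element core at chr15:40953242-40953289, plus strand: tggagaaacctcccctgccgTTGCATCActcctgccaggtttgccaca
ASNS ATF4 element core at chr7:97872449-97872496, minus strand: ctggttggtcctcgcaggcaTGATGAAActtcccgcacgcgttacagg
ATF3 ATF4 element core at chr1:212565196-212565243, plus strand: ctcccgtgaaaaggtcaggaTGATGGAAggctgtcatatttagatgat

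Of the 11 genes with an ERSE or ERSE-II match, 6 were higher and 0 lower in MR49F against LNCaP, and 9 were higher and 1 lower in C4-2 against LNCaP. Of the 30 genes with a promoter and neither match, 15 were higher and 3 lower in MR49F, and 18 were higher and 4 lower in C4-2. The median log2 fold changes were 0.41 with and 0.20 without a match in MR49F, and 0.45 with and 0.35 without in C4-2 against LNCaP. Of the 6 genes with an ATF4 element core, 1 was higher and 1 lower in MR49F against LNCaP, with a median of -0.04, and 2 were higher and 1 lower in C4-2 against LNCaP, with a median of 0.05. No difference between genes with and without a match was tested.

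Among the genes grouped here as the IRE1-XBP1 branch, more were called higher in C4-2 than in MR49F. Each gene was placed in 1 branch only, and EDEM1 and the derlins stand under ERAD. Of the 6 IRE1-XBP1 genes, 2 were higher and 0 lower in MR49F against LNCaP, 5 were higher and 0 lower in C4-2 against LNCaP, and 1 was higher and 4 were lower in MR49F against C4-2. The counts of this and every other branch stand beside the shares over all tested genes. These were 24.1% higher and 22.8% lower in MR49F against LNCaP, and 26.2% and 23.5% in C4-2 against LNCaP. In MR49F against C4-2 they were 29.9% and 31.1%. XBP1 (ENSG00000100219, GRCh38 chromosome 22, 28794555 to 28800597, minus strand) had 181, 184 and 185 CPM in MR49F, 393, 300 and 370 CPM in C4-2 and 201, 206 and 215 CPM in LNCaP. All C4-2 libraries lay above all others, and the MR49F libraries lay below the LNCaP libraries without overlap. XBP1 was higher in C4-2 than in LNCaP (log2 fold change 0.78, SE 0.0879, adjusted p = 3.31e-07) and lower in MR49F than in C4-2 (log2 fold change -0.95, SE 0.0883, adjusted p = 9.95e-09), while MR49F against LNCaP had a log2 fold change of -0.18 (SE 0.0887, adjusted p = 0.109). It passed there as lower with the 6 libraries of those lines alone (adjusted p = 0.00481), without C4-2 replicate 1 or 2 (0.026 to 0.0291) and without scaling factors (0.0168). ERN1, the sensor itself, had 51.6, 49.9 and 47.3 CPM in MR49F, 50.9, 61 and 56.2 CPM in C4-2 and 46.4, 44.2 and 44.9 CPM in LNCaP. Its MR49F and C4-2 libraries overlapped and both stood above LNCaP, and it was called higher in C4-2 (log2 fold change 0.30, SE 0.0912, adjusted p = 0.0098), whereas MR49F against LNCaP had a log2 fold change of 0.14 (SE 0.0929, adjusted p = 0.248). Without scaling factors that call was lost (adjusted p = 0.0508), and without C4-2 replicate 1 ERN1 passed as lower in MR49F than in C4-2 (adjusted p = 0.018).

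DNAJB9, DNAJC3 and DNAJB11 are J-domain co-chaperones, classical XBP1 targets that pass clients to HSPA5. All were called higher in C4-2 than in LNCaP and lower in MR49F than in C4-2. DNAJB9 (ERdj4), which also restrains IRE1, had 45.4, 46 and 55.4 CPM in MR49F, 62.7, 56.9 and 64.4 CPM in C4-2 and 28.2, 25.7 and 30.9 CPM in LNCaP. Every derivative library lay above every LNCaP library, and DNAJB9 was higher in MR49F (log2 fold change 0.80, SE 0.106, adjusted p = 3.24e-06) and in C4-2 (log2 fold change 1.12, SE 0.104, adjusted p = 1.63e-08). It was lower in MR49F than in C4-2 (log2 fold change -0.33, SE 0.0984, adjusted p = 0.00684), a call lost without MR49F replicate 1 (adjusted p = 0.0502). DNAJC3 (p58IPK), a co-chaperone also known as an inhibitor of PERK, had 71.5, 73.2 and 82.8 CPM in MR49F, 132, 149 and 155 CPM in C4-2 and 77, 79.2 and 82.7 CPM in LNCaP. Only its C4-2 libraries stood apart, and it was higher in C4-2 than in LNCaP (log2 fold change 0.86, SE 0.0863, adjusted p = 5.39e-08) and lower in MR49F than in C4-2 (log2 fold change -0.93, SE 0.0864, adjusted p = 9.64e-09). DNAJB11 (ERdj3), a secreted HSPA5 co-chaperone, had 96.6, 88.1 and 100 CPM in MR49F, 157, 148 and 156 CPM in C4-2 and 83.1, 86.7 and 91.5 CPM in LNCaP. Here too the C4-2 libraries stood above all others, and it was higher in C4-2 than in LNCaP (log2 fold change 0.82, SE 0.0798, adjusted p = 3.53e-08) and lower in MR49F than in C4-2 (log2 fold change -0.70, SE 0.0793, adjusted p = 2.05e-07). SEC61B, a subunit of the channel through which new proteins enter the ER, went the other way, with 127, 126 and 121 CPM in MR49F, 104, 87.3 and 83.6 CPM in C4-2 and 83.6, 85.2 and 79.8 CPM in LNCaP. Its MR49F libraries stood above both sensitive lines, and it was higher in MR49F than in LNCaP (log2 fold change 0.59, SE 0.0885, adjusted p = 1.34e-05) and than in C4-2 (log2 fold change 0.43, SE 0.087, adjusted p = 2.22e-04).

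**Figure D2:**
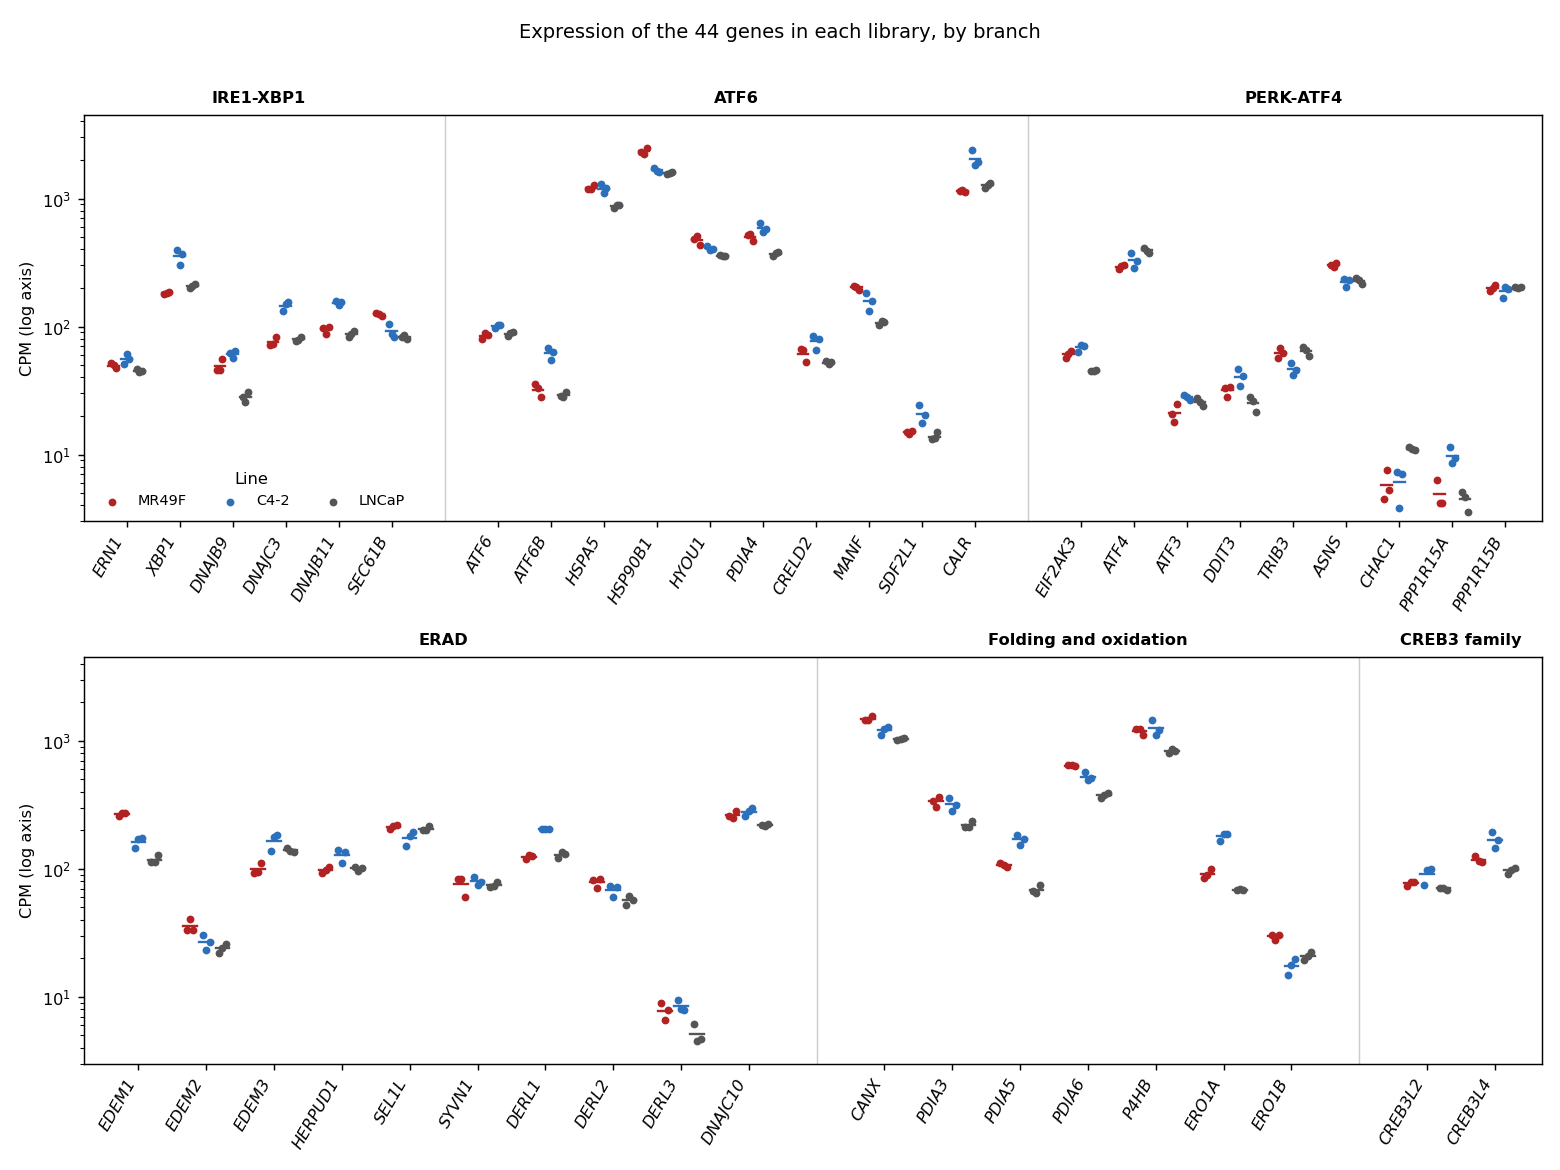
CPM (y axis, log scale) of the 44 genes (x axis, grouped by branch) in each of 9 libraries, with MR49F in red, C4-2 in blue and LNCaP in grey. Points are libraries and short bars are means of 3 replicates. XBP1, DNAJC3, DNAJB11, ATF6B, CALR and ERO1A stand higher in C4-2 than in both other lines, and EDEM1 and HSP90B1 stand highest in MR49F.

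In the ATF6 branch HSPA5, PDIA4 and MANF were higher in both derivatives, HSP90B1 was higher in MR49F and CALR in C4-2. Of 10 genes, 5 were higher and 0 lower in MR49F against LNCaP, 8 were higher and 0 lower in C4-2 against LNCaP, and 3 were higher and 6 lower in MR49F against C4-2. HSPA5 (BiP; ENSG00000044574, GRCh38 chromosome 9, 125234853 to 125241330, minus strand), the main ER chaperone of the HSP70 family and a regulator of all 3 sensors, had 1198, 1192 and 1270 CPM in MR49F, 1295, 1097 and 1201 CPM in C4-2 and 849, 885 and 898 CPM in LNCaP. Both derivatives lay above LNCaP without overlap and overlapped each other. HSPA5 was higher in MR49F (log2 fold change 0.48, SE 0.0756, adjusted p = 2.76e-05) and in C4-2 (log2 fold change 0.45, SE 0.0755, adjusted p = 5.04e-05), and MR49F against C4-2 had a log2 fold change of 0.03 (SE 0.0753, adjusted p = 0.784). HSP90B1 (GRP94), the ER member of the HSP90 family, had 2294, 2226 and 2505 CPM in MR49F, 1733, 1629 and 1612 CPM in C4-2 and 1549, 1595 and 1626 CPM in LNCaP. It was higher in MR49F than in LNCaP (log2 fold change 0.56, SE 0.073, adjusted p = 2.45e-06) and than in C4-2 (log2 fold change 0.50, SE 0.0729, adjusted p = 5.94e-06), whereas C4-2 against LNCaP had overlapping libraries and a log2 fold change of 0.06 (SE 0.0728, adjusted p = 0.51). CALR (calreticulin), the soluble lectin chaperone for glycoproteins, had 1151, 1166 and 1131 CPM in MR49F, 2377, 1845 and 1936 CPM in C4-2 and 1202, 1281 and 1327 CPM in LNCaP. It was higher in C4-2 than in LNCaP (log2 fold change 0.69, SE 0.0863, adjusted p = 1.17e-06) and lower in MR49F than in C4-2 (log2 fold change -0.84, SE 0.0865, adjusted p = 4.99e-08). For MR49F against LNCaP, CALR had a log2 fold change of -0.14 (SE 0.0861, adjusted p = 0.18), and passed as lower with the 6 libraries of those lines alone (adjusted p = 0.0133), without C4-2 replicate 1 (0.0348) and without scaling factors (0.0294).

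MANF, a small secreted protein that binds HSPA5, had 209, 204 and 193 CPM in MR49F, 182, 132 and 157 CPM in C4-2 and 102, 110 and 109 CPM in LNCaP. The libraries of the 3 lines did not overlap, with MR49F above C4-2 and C4-2 above LNCaP. MANF was higher in MR49F (log2 fold change 0.92, SE 0.097, adjusted p = 1.21e-07) and in C4-2 (log2 fold change 0.56, SE 0.0966, adjusted p = 6.19e-05) than in LNCaP, and higher in MR49F than in C4-2 (log2 fold change 0.36, SE 0.0946, adjusted p = 0.00276). Without C4-2 replicate 2 the last value was 0.24 (adjusted p = 0.019). HYOU1, a large HSP70-like nucleotide exchange factor of HSPA5, was higher in MR49F than in LNCaP (log2 fold change 0.41, SE 0.0765, adjusted p = 1.76e-04). The call of HYOU1 in C4-2 against LNCaP (log2 fold change 0.19, adjusted p = 0.0476) was lost without any 1 of 7 libraries (every library but MR49F replicate 3 and C4-2 replicate 2), with adjusted p from 0.0536 to 0.146. It was also lost with the replicate block (0.0537), with C4-2 replicate 1 thinned (0.064), with the stricter count filter (0.0605) or none (0.0708), and without scaling factors, where the value was 0.11 (0.235). Its call as higher in MR49F than in C4-2 (log2 fold change 0.22, SE 0.0761, adjusted p = 0.0165) was lost without MR49F replicate 1 or 2 or C4-2 replicate 2, with adjusted p up to 0.0942. PDIA4, a disulfide isomerase, had 520, 526 and 469 CPM in MR49F, 646, 549 and 583 CPM in C4-2 and 358, 373 and 379 CPM in LNCaP. PDIA4 was higher in both derivatives, by 0.45 in MR49F and 0.68 in C4-2 on the log2 scale, and lower in MR49F than in C4-2 (log2 fold change -0.23, SE 0.078, adjusted p = 0.0138) unless MR49F replicate 3 was left out (adjusted p = 0.0686).

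The sensor gene ATF6 had 80.2, 88.4 and 85.3 CPM in MR49F, 96.7, 102 and 102 CPM in C4-2 and 84.5, 88.8 and 90.4 CPM in LNCaP. MR49F and LNCaP libraries overlapped, and C4-2 lay above both, by 0.19 on the log2 scale against LNCaP without a call (adjusted p = 0.0545). ATF6 passed as higher in C4-2 than in LNCaP without C4-2 replicate 1 (adjusted p = 0.0204), and it was lower in MR49F than in C4-2 (log2 fold change -0.24, SE 0.0784, adjusted p = 0.0116) except without MR49F replicate 1 (adjusted p = 0.075). Its paralog ATF6B had 35.3, 32.9 and 28.1 CPM in MR49F, 67.9, 54.8 and 63.5 CPM in C4-2 and 28.8, 28.4 and 30.6 CPM in LNCaP. The C4-2 libraries stood above all others, and ATF6B was higher in C4-2 than in LNCaP (log2 fold change 1.10, SE 0.105, adjusted p = 2.96e-08) and lower in MR49F than in C4-2 (log2 fold change -0.96, SE 0.104, adjusted p = 9.85e-08). Per kilobase of exon, ATF6 made up 54.9% ± 3.60 of the ATF6 and ATF6B levels in MR49F, 42.7% ± 3.31 in C4-2 and 58.0% ± 0.866 in LNCaP. SDF2L1, an HSPA5-cycle cofactor, had 15.1, 14.4 and 15.3 CPM in MR49F, 24.2, 17.5 and 20.2 CPM in C4-2 and 13.2, 13.4 and 14.9 CPM in LNCaP. SDF2L1 and CRELD2, a secreted disulfide-related protein, were higher in C4-2 than in LNCaP (log2 fold changes 0.62 and 0.55) and lower in MR49F than in C4-2 (log2 fold changes -0.50 and -0.32). Without C4-2 replicate 1 the MR49F to C4-2 value of SDF2L1 was -0.33 (adjusted p = 0.0328), and without MR49F replicate 3 CRELD2 did not pass in that comparison (adjusted p = 0.0752). In MR49F against LNCaP, CRELD2 had a log2 fold change of 0.23 (SE 0.106, adjusted p = 0.0814) and passed as higher without MR49F replicate 3 or C4-2 replicate 1 (adjusted p = 0.0236 to 0.0241).

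The PERK-ATF4 branch did not move together. Of 9 genes, 3 were higher and 2 lower in MR49F against LNCaP, 3 were higher and 3 lower in C4-2 against LNCaP, and 2 were higher and 3 lower in MR49F against C4-2. In MR49F against LNCaP that was 33.3% higher and 22.2% lower, beside 24.1% and 22.8% of all tested genes. EIF2AK3, which encodes PERK (ENSG00000172071, GRCh38 chromosome 2, 88556741 to 88627576, minus strand), had 56.8, 61 and 63.9 CPM in MR49F, 63.7, 72.1 and 70.7 CPM in C4-2 and 44.6, 45 and 45.9 CPM in LNCaP. Both derivatives lay above LNCaP without overlap, and the gene was higher in MR49F (log2 fold change 0.42, SE 0.089, adjusted p = 5.58e-04) and in C4-2 (log2 fold change 0.60, SE 0.0877, adjusted p = 9.36e-06). Without MR49F replicate 3 or C4-2 replicate 1 it also passed as lower in MR49F than in C4-2 (adjusted p = 0.0145 to 0.0451). ATF4 mRNA (ENSG00000128272, GRCh38 chromosome 22, 39519695 to 39522685, plus strand) had 282, 295 and 305 CPM in MR49F, 376, 287 and 324 CPM in C4-2 and 414, 392 and 374 CPM in LNCaP. It was lower in MR49F than in LNCaP, with no overlap (log2 fold change -0.42, SE 0.0881, adjusted p = 5.44e-04). It was lower in C4-2 too (log2 fold change -0.25, SE 0.0876, adjusted p = 0.0209), but those libraries overlapped, since C4-2 replicate 1 lay above LNCaP replicate 3, and the call was lost without C4-2 replicate 2, C4-2 replicate 3, LNCaP replicate 1 or LNCaP replicate 2 (adjusted p from 0.051 to 0.101), with a value of -0.17 without C4-2 replicate 2. Without C4-2 replicate 2, ATF4 passed as lower in MR49F than in C4-2 (adjusted p = 0.00833). ATF4 is controlled largely in translation, which these counts do not show.

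Targets of ATF4 differed in direction. CHAC1, which degrades glutathione, had 4.49, 7.6 and 5.3 CPM in MR49F, 7.35, 3.8 and 7.01 CPM in C4-2 and 11.5, 11.1 and 10.8 CPM in LNCaP. Every derivative library lay below every LNCaP library, and CHAC1 was lower in MR49F (log2 fold change -0.95, SE 0.212, adjusted p = 9.46e-04) and in C4-2 (log2 fold change -0.80, SE 0.196, adjusted p = 0.00195). DDIT3 (CHOP), a transcription factor of prolonged ER stress, had 33.2, 28.3 and 33.7 CPM in MR49F, 46.5, 34.4 and 41.1 CPM in C4-2 and 28.3, 26.1 and 21.4 CPM in LNCaP. It was higher in C4-2 than in LNCaP without overlap (log2 fold change 0.70, SE 0.123, adjusted p = 8.23e-05). In MR49F against LNCaP it passed narrowly and with overlap (log2 fold change 0.32, SE 0.128, adjusted p = 0.0453), and this call was lost without MR49F replicate 1 or 3, C4-2 replicate 3 or LNCaP replicate 2 or 3 (adjusted p from 0.059 to 0.256), with DESeq2 (0.0609) and with voom (0.0621), and the value was 0.21 without LNCaP replicate 3. DDIT3 was lower in MR49F than in C4-2 (log2 fold change -0.38, SE 0.12, adjusted p = 0.00967), except without MR49F replicate 2 or C4-2 replicate 1 (adjusted p = 0.0596 to 0.0692), the value being -0.25 without C4-2 replicate 1. Exons of other genes cover 39.6% of its exon bases. ASNS, asparagine synthetase, had 302, 294 and 311 CPM in MR49F, 234, 202 and 232 CPM in C4-2 and 239, 232 and 214 CPM in LNCaP. Only its MR49F libraries stood apart, and it was higher in MR49F than in LNCaP (log2 fold change 0.40, SE 0.0792, adjusted p = 2.79e-04) and than in C4-2 (log2 fold change 0.44, SE 0.0789, adjusted p = 6.68e-05), with 44.6% of its exon bases shared with a gene on the same strand.

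TRIB3, a pseudokinase that restrains ATF4 and CHOP signalling, was lower in C4-2 than in LNCaP (log2 fold change -0.46, SE 0.1, adjusted p = 7.52e-04) and higher in MR49F than in C4-2 (log2 fold change 0.40, SE 0.1, adjusted p = 0.00159). ATF3, a stress-induced transcription factor, had 20.7, 18.1 and 25 CPM in MR49F, 29.4, 28.1 and 26.8 CPM in C4-2 and 27.6, 25.8 and 24.1 CPM in LNCaP. It was lower in MR49F than in C4-2 (log2 fold change -0.41, SE 0.116, adjusted p = 0.00424). With LNCaP as the comparator, ATF3 in MR49F had a log2 fold change of -0.28 (SE 0.12, adjusted p = 0.0577), and passed as lower without MR49F replicate 3, C4-2 replicate 1 or C4-2 replicate 2 (adjusted p from 0.00958 to 0.0379). PPP1R15A (GADD34), the inducible subunit that directs a phosphatase to eIF2 alpha, had 6.35, 4.16 and 4.15 CPM in MR49F, 11.4, 8.6 and 9.44 CPM in C4-2 and 5.13, 4.66 and 3.58 CPM in LNCaP. The C4-2 libraries lay above all others, and it was higher in C4-2 than in LNCaP (log2 fold change 1.17, SE 0.191, adjusted p = 3.68e-05) and lower in MR49F than in C4-2 (log2 fold change -1.05, SE 0.187, adjusted p = 6.34e-05). PPP1R15B, the constitutive subunit for the same phosphatase, lay between 168 and 211 CPM in all libraries and was called in no comparison.

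Of the 10 ERAD genes, 5 were higher and 1 lower in MR49F against LNCaP, 6 were higher and 1 lower in C4-2 against LNCaP, and 3 were higher and 3 lower in MR49F against C4-2. In MR49F against C4-2 that was 30% in each direction, near the 29.9% higher and 31.1% lower of all tested genes. Against LNCaP it was 50% higher and 10% lower in MR49F, and 60% and 10% in C4-2. EDEM1 (ENSG00000134109, GRCh38 chromosome 3, 5187646 to 5219957, plus strand), a mannose-trimming lectin that sends misfolded glycoproteins to disposal, had 259, 271 and 273 CPM in MR49F, 144, 172 and 173 CPM in C4-2 and 112, 112 and 127 CPM in LNCaP. The lines did not overlap, with MR49F highest and LNCaP lowest. EDEM1 was higher in MR49F than in LNCaP (log2 fold change 1.20, SE 0.0867, adjusted p = 3.79e-10), the largest log2 fold change of the 44 genes in that comparison, higher in C4-2 than in LNCaP (log2 fold change 0.48, SE 0.0866, adjusted p = 1.12e-04) and higher in MR49F than in C4-2 (log2 fold change 0.72, SE 0.0849, adjusted p = 3.40e-07). Its paralog EDEM3 had 92.7, 95 and 110 CPM in MR49F, 137, 176 and 183 CPM in C4-2 and 145, 137 and 136 CPM in LNCaP. It was lower in MR49F than in LNCaP (log2 fold change -0.49, SE 0.101, adjusted p = 4.61e-04) and than in C4-2 (log2 fold change -0.73, SE 0.1, adjusted p = 2.71e-06). In C4-2 against LNCaP it had a log2 fold change of 0.24 (SE 0.0991, adjusted p = 0.0515) and passed as higher without MR49F replicate 3 or C4-2 replicate 1 (adjusted p = 8.94e-05 to 0.0495). Per kilobase of exon, EDEM1 made up 75.7% ± 1.40 of the EDEM1 and EDEM3 levels in MR49F, 53.4% ± 1.35 in C4-2 and 49.2% ± 2.45 in LNCaP. EDEM2, the third paralog, had 33, 40.4 and 33.1 CPM in MR49F, 30.5, 23.2 and 26.6 CPM in C4-2 and 22.1, 24.1 and 25.8 CPM in LNCaP. It was higher in MR49F than in LNCaP (log2 fold change 0.57, SE 0.12, adjusted p = 5.94e-04) and than in C4-2 (log2 fold change 0.38, SE 0.115, adjusted p = 0.00746), the second of these calls being lost without MR49F replicate 2 (adjusted p = 0.062). In C4-2 against LNCaP it passed as higher only without C4-2 replicate 2 (adjusted p = 0.0443).

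The derlins, membrane proteins of the export channel, differed in their calls. DERL1 had 119, 128 and 125 CPM in MR49F, 203, 205 and 206 CPM in C4-2 and 121, 134 and 130 CPM in LNCaP. Its C4-2 libraries stood apart, and it was higher in C4-2 than in LNCaP (log2 fold change 0.67, SE 0.075, adjusted p = 2.60e-07) and lower in MR49F than in C4-2 (log2 fold change -0.73, SE 0.0751, adjusted p = 5.08e-08). DERL2 was higher in MR49F than in LNCaP (log2 fold change 0.47, SE 0.0987, adjusted p = 5.73e-04) and in C4-2 than in LNCaP (log2 fold change 0.28, adjusted p = 0.0228), the C4-2 call being lost without C4-2 replicate 1 or 3 or LNCaP replicate 1 or 3 (adjusted p up to 0.146). Without MR49F replicate 2 or C4-2 replicate 1, DERL2 also passed as higher in MR49F than in C4-2 (adjusted p = 0.0174 to 0.0401). DERL3, at the lowest level of the 44 genes per kilobase of exon in C4-2 and LNCaP, had 8.97, 6.53 and 7.84 CPM in MR49F, 9.44, 7.97 and 7.87 CPM in C4-2 and 6.09, 4.54 and 4.69 CPM in LNCaP. It was called higher in MR49F (log2 fold change 0.60, SE 0.185, adjusted p = 0.0112) and in C4-2 (log2 fold change 0.75, SE 0.174, adjusted p = 0.00122), and the MR49F call was lost without MR49F replicate 1 or LNCaP replicate 2 or 3 (adjusted p from 0.0518 to 0.0674). SMARCB1 on the other strand covers 77.0% of the exon bases of DERL3.

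Calls differed between genes of the HRD1 ubiquitin ligase complex. SYVN1 (HRD1), the ligase itself, was called in no comparison, with means of 75.3 ± 13.5 CPM in MR49F, 80.2 ± 5.79 CPM in C4-2 and 74.6 ± 3.94 CPM in LNCaP. SEL1L, its adaptor, was called lower in C4-2 than in LNCaP (log2 fold change -0.25, SE 0.0872, adjusted p = 0.0228) and higher in MR49F than in C4-2 (log2 fold change 0.30, SE 0.0871, adjusted p = 0.00587). The first call was lost without C4-2 replicate 1 or LNCaP replicate 3 (adjusted p = 0.0784 to 0.0875). Without C4-2 replicate 1 the log2 fold change was -0.14 for C4-2 against LNCaP and 0.19 for MR49F against C4-2. HERPUD1, which assembles the ligase complex and is a target of both ATF6 and ATF4, was higher in C4-2 than in LNCaP (log2 fold change 0.35, SE 0.0904, adjusted p = 0.00279) and lower in MR49F than in C4-2 (log2 fold change -0.40, SE 0.0904, adjusted p = 6.63e-04). DNAJC10 (ERdj5), a reductase that opens disulfides before export, was higher in MR49F (log2 fold change 0.26, SE 0.078, adjusted p = 0.00857) and in C4-2 (log2 fold change 0.35, SE 0.0778, adjusted p = 9.35e-04) than in LNCaP, the MR49F value not passing without scaling factors (adjusted p = 0.0731).

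Folding and oxidation genes were the branch with a call for every gene against LNCaP. Of 7 genes, 7 were higher and 0 lower in MR49F, 6 were higher and 1 lower in C4-2, and 3 were higher and 2 lower in MR49F against C4-2. All of them but ERO1B have exons that overlap another gene, over 2.41% (CANX) to 25.2% (PDIA6) of their exon bases. The part of this overlap in the calls was not tested. PDIA6 (ENSG00000143870, GRCh38 chromosome 2, 10783391 to 10837977, minus strand), a disulfide isomerase that also acts on the sensors, had 645, 641 and 634 CPM in MR49F, 566, 491 and 516 CPM in C4-2 and 357, 379 and 392 CPM in LNCaP. The lines did not overlap, MR49F being highest and LNCaP lowest. PDIA6 was higher in MR49F (log2 fold change 0.77, SE 0.075, adjusted p = 4.14e-08) and in C4-2 (log2 fold change 0.48, SE 0.0748, adjusted p = 1.94e-05) than in LNCaP, and higher in MR49F than in C4-2 (log2 fold change 0.28, SE 0.0743, adjusted p = 0.00241). P4HB, the founding protein disulfide isomerase, had 1245, 1237 and 1105 CPM in MR49F, 1452, 1102 and 1207 CPM in C4-2 and 795, 864 and 838 CPM in LNCaP. P4HB was higher in MR49F (log2 fold change 0.52, SE 0.0901, adjusted p = 6.97e-05) and in C4-2 (log2 fold change 0.59, SE 0.0901, adjusted p = 1.55e-05), and the derivatives overlapped each other. CANX (calnexin), the membrane-bound lectin chaperone, was higher in MR49F than in LNCaP (log2 fold change 0.53, SE 0.0748, adjusted p = 6.34e-06) and than in C4-2 (log2 fold change 0.30, SE 0.0745, adjusted p = 0.00146). Its call in C4-2 against LNCaP (log2 fold change 0.23, adjusted p = 0.016) was lost without C4-2 replicate 3, LNCaP replicate 1 or LNCaP replicate 2 (adjusted p from 0.0624 to 0.084).

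PDIA5, a disulfide isomerase reported to act on ATF6, had 111, 107 and 104 CPM in MR49F, 184, 153 and 172 CPM in C4-2 and 66.5, 64.1 and 74 CPM in LNCaP. The order was C4-2, MR49F and LNCaP with no overlap, and PDIA5 was higher in MR49F (log2 fold change 0.66, SE 0.0888, adjusted p = 3.63e-06) and in C4-2 (log2 fold change 1.32, SE 0.0878, adjusted p = 1.01e-10) and lower in MR49F than in C4-2 (log2 fold change -0.66, SE 0.0852, adjusted p = 1.14e-06). PDIA3 (ERp57), which works with calnexin and calreticulin, had 338, 306 and 362 CPM in MR49F, 357, 283 and 314 CPM in C4-2 and 211, 212 and 235 CPM in LNCaP. PDIA3 was higher in MR49F (log2 fold change 0.61, SE 0.0905, adjusted p = 1.08e-05) and in C4-2 (log2 fold change 0.54, SE 0.0902, adjusted p = 4.76e-05) than in LNCaP. Its processed pseudogene PDIA3P1 held more counts than PDIA3 itself, so the split of reads between the copies is uncertain. Unlike PDIA3, PDIA3P1 passed as higher in MR49F than in C4-2 (log2 fold change 0.22, adjusted p = 0.0102). The lack of a PDIA3 call between the derivatives is therefore uncertain too. PDIA3 held 40.7% ± 1.47 of their sum in MR49F, 43.1% ± 1.60 in C4-2 and 40.6% ± 1.12 in LNCaP, and the sum was 824 ± 39.4 CPM in MR49F, 736 ± 59.5 CPM in C4-2 and 540 ± 20.3 CPM in LNCaP. Without C4-2 replicate 1, PDIA3 passed as higher in MR49F than in C4-2 (adjusted p = 0.0404).

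The ERO1 oxidases, which recharge the disulfide isomerases with oxidising power, differed in pattern between the paralogs. ERO1A (ENSG00000197930, GRCh38 chromosome 14, 52639916 to 52695900, minus strand) had 84.6, 89.1 and 99.5 CPM in MR49F, 165, 187 and 187 CPM in C4-2 and 68.4, 69.4 and 67.7 CPM in LNCaP. The C4-2 libraries stood far above MR49F, which in turn lay above LNCaP without overlap. ERO1A was higher in MR49F (log2 fold change 0.41, SE 0.0869, adjusted p = 5.92e-04) and in C4-2 (log2 fold change 1.39, SE 0.0856, adjusted p = 3.08e-11), which was the largest log2 fold change of the 44 genes in that comparison, and lower in MR49F than in C4-2 (log2 fold change -0.98, SE 0.0838, adjusted p = 3.10e-09). ERO1B (ENSG00000086619, GRCh38 chromosome 1, 236215555 to 236281985, minus strand) had 30.6, 28 and 30.2 CPM in MR49F, 14.9, 17.6 and 19.6 CPM in C4-2 and 19.5, 20.9 and 22.2 CPM in LNCaP. Here the MR49F libraries stood above all others, and C4-2 replicate 3 lay just above LNCaP replicate 1, so that these lines overlapped. ERO1B was higher in MR49F than in LNCaP (log2 fold change 0.51, SE 0.116, adjusted p = 0.00121) and than in C4-2 (log2 fold change 0.81, SE 0.115, adjusted p = 3.96e-06). Its call as lower in C4-2 than in LNCaP (log2 fold change -0.31, adjusted p = 0.0398) was lost without MR49F replicate 1, C4-2 replicate 1, LNCaP replicate 2 or LNCaP replicate 3 (adjusted p from 0.052 to 0.28) and with DESeq2 (0.0738). The value was -0.17 without C4-2 replicate 1 and -0.20 with that library thinned. Per kilobase of exon, ERO1A made up 68.5% ± 2.03 of the ERO1A and ERO1B levels in MR49F, 88.0% ± 0.827 in C4-2 and 70.0% ± 1.46 in LNCaP.

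CREB3L4 and CREB3L2, relatives of ATF6 in the CREB3 family, were higher in C4-2 than in LNCaP. The family holds ER-anchored transcription factors that enlarge the secretory pathway. CREB3 itself had no call in C4-2 against LNCaP (log2 fold change 0.10, adjusted p = 0.407). It was higher in MR49F than in LNCaP (log2 fold change 0.45, adjusted p = 7.12e-04). It was also higher in MR49F than in C4-2 (log2 fold change 0.35, adjusted p = 0.00322). CREB3L1 did not pass the filter on low counts. CREB3L4, which is known to be abundant in prostate and induced by androgen, had 126, 115 and 113 CPM in MR49F, 194, 145 and 167 CPM in C4-2 and 91.4, 98.6 and 101 CPM in LNCaP. CREB3L4 was higher in C4-2 than in LNCaP (log2 fold change 0.81, SE 0.096, adjusted p = 6.65e-07) and lower in MR49F than in C4-2 (log2 fold change -0.52, SE 0.0949, adjusted p = 8.17e-05). In MR49F against LNCaP it was called higher (log2 fold change 0.29, SE 0.0972, adjusted p = 0.0198), a call lost without MR49F replicate 1, LNCaP replicate 1 or LNCaP replicate 2 (adjusted p from 0.0641 to 0.124) and without scaling factors (0.0905). CREB3L2, a regulator of coat proteins of ER-to-Golgi vesicles, had 73.6, 79 and 79.3 CPM in MR49F, 74.7, 98.6 and 98.9 CPM in C4-2 and 71.2, 71.2 and 68.6 CPM in LNCaP. C4-2 replicate 1 lay with the MR49F libraries and the other C4-2 libraries above them, and it was called higher in C4-2 than in LNCaP (log2 fold change 0.35, SE 0.0996, adjusted p = 0.00623). Without C4-2 replicate 1, CREB3L2 passed as lower in MR49F than in C4-2 (adjusted p = 1.62e-04).

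Several patterns of direct and shared calls are given here, and not all of the 44 genes fall into them. Against LNCaP, 18 of the 44 genes were higher in both derivatives, beside 8.84% of all tested genes. Of these, HYOU1, MANF, EDEM1, CANX and PDIA6 were higher in MR49F than in C4-2, and DNAJB9, PDIA4, DDIT3, PDIA5, ERO1A and CREB3L4 were lower in MR49F than in C4-2. The other 7 (HSPA5, EIF2AK3, DERL2, DERL3, DNAJC10, PDIA3 and P4HB) had no call between the derivatives. SEC61B, HSP90B1, ASNS and EDEM2 were higher in MR49F than in both sensitive lines with no call between C4-2 and LNCaP. These 4 of the 44 genes are close to the 9.26% of all tested genes with that pattern. XBP1, DNAJC3, DNAJB11, ATF6B, CRELD2, SDF2L1, CALR, PPP1R15A, HERPUD1 and DERL1 were higher in C4-2 than in LNCaP and lower in MR49F than in C4-2 with no call between MR49F and LNCaP, as were 10.2% of all tested genes. With the 6 libraries of MR49F and LNCaP alone, XBP1 and CALR passed between these lines as lower in MR49F and CRELD2 as higher. ATF4 and CHAC1 were lower in both derivatives. These 2 of the 44 genes are a smaller share than the 7.94% of all tested genes. In all, 42 of the 44 genes were called in at least 1 comparison and 12 in all 3, beside 77.1% and 17.7% of all tested genes. Both comparisons against LNCaP share the LNCaP libraries.

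Added up, the 44 genes took a larger share of the counts in the derivatives. Their summed level was 12908, 12888 and 13166 CPM in MR49F, 14158, 12571 and 13331 CPM in C4-2, and 9902, 10186 and 10326 CPM in LNCaP. Both derivatives lay above LNCaP and overlapped each other, and without scaling factors the sums were 12581 to 12808 CPM in MR49F, 12525 to 13783 CPM in C4-2 and 10314 to 10716 CPM in LNCaP. HSP90B1 made up 15.3% of the sum. CALR, CANX, HSPA5 and P4HB each averaged at least 832 CPM in every line. The sum therefore depends most on a few abundant genes and says little about the others. The folding and oxidation genes summed to 3883 ± 13.8 CPM in MR49F, 3666 ± 187 CPM in C4-2 and 2613 ± 80.5 CPM in LNCaP, and the ATF6 branch to 6086 ± 81.1 CPM in MR49F, 6326 ± 541 CPM in C4-2 and 4756 ± 142 CPM in LNCaP. The IRE1-XBP1 branch summed to 578 ± 12.6 CPM in MR49F, 863 ± 52.8 CPM in C4-2 and 530 ± 13.3 CPM in LNCaP, with C4-2 apart from the others. The PERK-ATF4 branch summed to 983 ± 35.8 CPM in MR49F, 941 ± 55.9 CPM in C4-2 and 1000 ± 43.2 CPM in LNCaP, with overlapping lines.

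**Figure D3:**
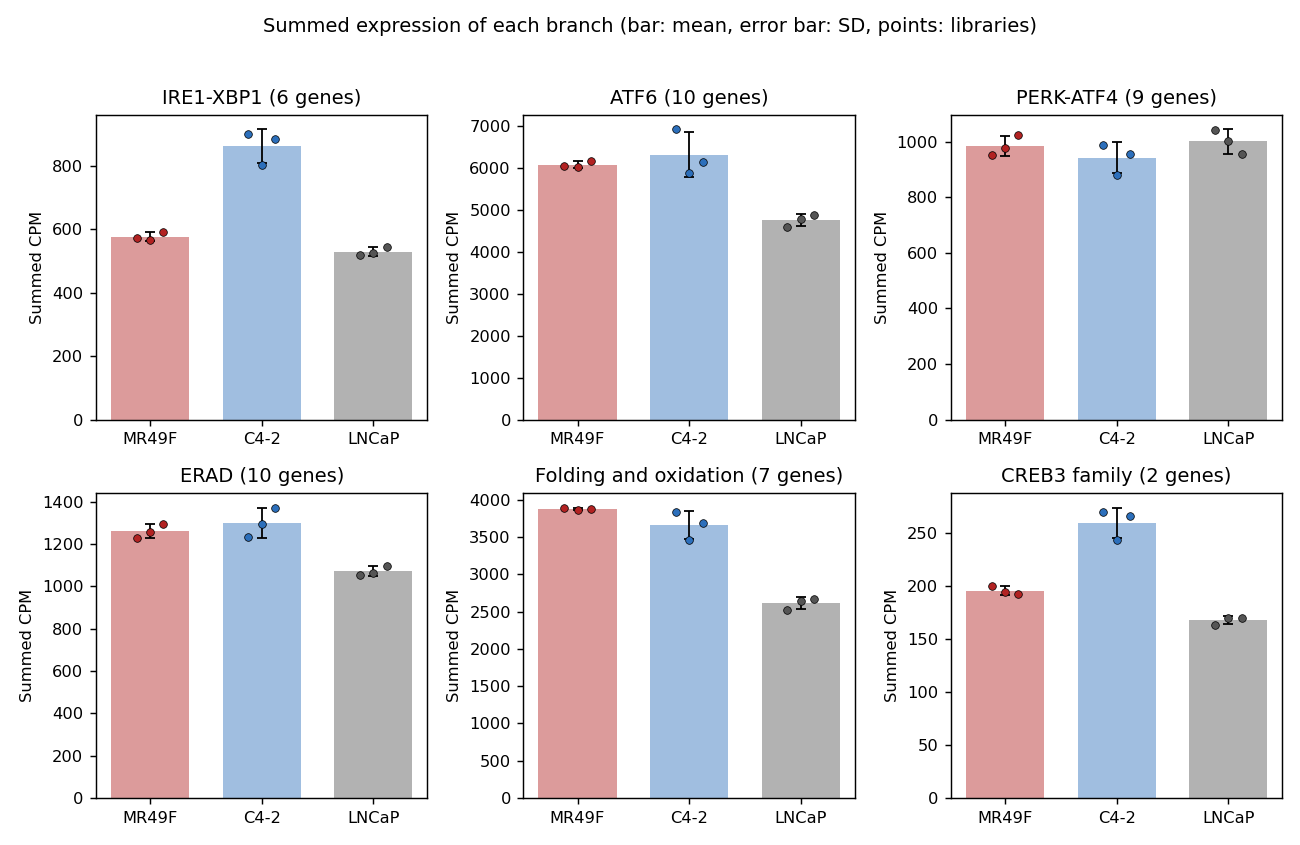
Summed CPM (y axis) of the genes of each branch in MR49F, C4-2 and LNCaP, 1 panel per branch. Bars are means and error bars SDs of 3 libraries, shown as points. The folding and oxidation sum was 3883 ± 13.8 CPM in MR49F, 3666 ± 187 CPM in C4-2 and 2613 ± 80.5 CPM in LNCaP, whereas the PERK-ATF4 sums of the 3 lines overlapped.

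Per kilobase of exon the same genes led in all 3 lines. CALR, HSP90B1, HSPA5, CANX and P4HB held the first 5 places in each, from 157 CPM per kilobase (P4HB in LNCaP) upward. HSP90B1 was first in MR49F at 499 CPM per kilobase, ahead of CALR, while CALR was first in C4-2 at 756, ahead of HSP90B1 at 353. In LNCaP, CALR was at 468 and HSP90B1 at 339. XBP1 took rank 14 in MR49F, 9 in C4-2 and 10 in LNCaP, and EDEM1 rank 16 in MR49F, 23 in C4-2 and 23 in LNCaP. PPP1R15A and DERL3 were among the last 3 in each line, at 1.58 and 2.05 CPM per kilobase in MR49F, 3.17 and 2.22 in C4-2, and 1.44 and 1.35 in LNCaP. With the longest transcript as the length in place of all exons, the same 5 genes led, but in another order, with P4HB in LNCaP at 320 CPM per kilobase and the third, and HSPA5 at 225 and the fifth. Values and shares per kilobase therefore hold for the length used. Differences between genes next to each other in this order were not tested.

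Other genes of the same pathways were read from 8 further lists. The counts of every list stand beside the shares over all tested genes. These were 24.1% higher and 22.8% lower in MR49F against LNCaP, and 26.2% and 23.5% in C4-2 against LNCaP. In MR49F against C4-2 they were 29.9% and 31.1%. Of 35 tested ATF4 targets outside the 44 genes, 7 were higher and 16 lower in MR49F against LNCaP, 8 were higher and 12 lower in C4-2 against LNCaP, and 10 were higher and 16 lower in MR49F against C4-2. SLC7A5, an amino acid transporter subunit, averaged 3.16 ± 0.449 CPM in MR49F, 240 ± 28.4 CPM in C4-2 and 5.6 ± 1.05 CPM in LNCaP, and was lower in MR49F (log2 fold change -0.83) and higher in C4-2 (5.42) than in LNCaP. GDF15, a stress-induced cytokine, averaged 32.5 ± 1.99 CPM in MR49F, 114 ± 26.3 CPM in C4-2 and 117 ± 9.62 CPM in LNCaP and was lower in MR49F than in LNCaP (-1.85). STC2, a secreted glycoprotein, was lower in MR49F (-0.82) and higher in C4-2 (0.29) than in LNCaP, and VEGFA was higher in both (0.29 and 1.33).

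More of the eIF2 kinases and machinery were higher than lower in MR49F. Of 14 genes, 8 were higher and 1 lower in MR49F against LNCaP, 0 were higher and 4 lower in C4-2 against LNCaP, and 8 were higher and 1 lower in MR49F against C4-2. None was higher in C4-2 at an unadjusted p under 0.05 in edgeR, and DESeq2 and limma-voom called 0. EIF2AK2 (PKR), another eIF2 alpha kinase, averaged 108 ± 8.64 CPM in MR49F, 49 ± 12.3 CPM in C4-2 and 82.2 ± 4.77 CPM in LNCaP, higher in MR49F (0.40) and lower in C4-2 (-0.77) than in LNCaP. PPP1CB, a catalytic subunit of protein phosphatase 1, was likewise higher in MR49F (0.56) and lower in C4-2 (-0.48). EIF2AK4 (GCN2), the kinase for amino acid shortage, was lower in both (-0.41 and -0.74), and EIF2B1 was higher in MR49F (0.40).

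Genes of ER folding outside the 44 separated the derivatives. Of 30 tested, 9 were higher and 8 lower in MR49F against LNCaP, 22 were higher and 3 lower in C4-2 against LNCaP, and 5 were higher and 18 lower in MR49F against C4-2. FKBP10, a collagen prolyl isomerase, averaged 2.2 ± 0.379 CPM in MR49F, 270 ± 34.6 CPM in C4-2 and 356 ± 16.9 CPM in LNCaP and was lower in MR49F than in LNCaP (log2 fold change -7.33). AGR2, an ER disulfide isomerase of mucin-secreting cells, averaged 5.4 ± 0.815 CPM in MR49F, 47.7 ± 6.1 CPM in C4-2 and 21.9 ± 0.865 CPM in LNCaP. QSOX1, a secreted sulfhydryl oxidase, was lower in MR49F (-0.27) and higher in C4-2 (1.21) than in LNCaP, as was CALU, a calcium-binding ER protein (-0.33 and 0.88).

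Of 21 N-glycosylation genes, 8 were higher and 2 lower in MR49F against LNCaP, 16 were higher and 2 lower in C4-2 against LNCaP, and 3 were higher and 8 lower in MR49F against C4-2. STT3B and TUSC3, subunits of the oligosaccharyltransferase, were higher in MR49F (0.76 and 1.22) and in C4-2 (0.70 and 0.72). ALG5, which makes dolichol-linked glucose, was lower in MR49F (-0.68) and higher in C4-2 (0.25), and PGM3, which makes a precursor of the sugar donor, was higher in C4-2 (0.68). Of 38 genes of translocation and ER-Golgi traffic, 19 were higher and 2 lower in MR49F, 20 were higher and 5 lower in C4-2, and 14 were higher and 11 lower in MR49F against C4-2. KDELR3, a receptor that returns chaperones to the ER, averaged 2.75 ± 0.307 CPM in MR49F, 26.8 ± 2.73 CPM in C4-2 and 3.45 ± 0.654 CPM in LNCaP, and SEC11C, a signal peptidase subunit, averaged 118 ± 8.26 CPM in MR49F, 295 ± 30 CPM in C4-2 and 108 ± 7.2 CPM in LNCaP, both higher in C4-2 than in LNCaP. SRP72 was higher in MR49F (0.29) and lower in C4-2 (-0.71), and SEC23B was lower in C4-2 (-0.69).

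Of 22 other ERAD components, 7 were higher and 4 lower in MR49F, 6 were higher and 4 lower in C4-2, and 5 were higher and 8 lower in MR49F against C4-2. Against LNCaP that was 31.8% higher and 18.2% lower in MR49F, and 27.3% and 18.2% in C4-2. The shares of all tested genes were near these, with 24.1% and 22.8% in MR49F and 26.2% and 23.5% in C4-2. UBE2J1, the E2 enzyme that works with HRD1, was higher in MR49F (0.28) and lower in C4-2 (-0.54), UBAC2 was lower in MR49F (-0.31) and higher in C4-2 (0.50), SEL1L3 was lower in both (-0.99 and -0.31), and UFD1 was lower in MR49F (-0.56). Of 15 IRE1 partners and genes of stress output, 1 was higher and 2 lower in MR49F, 3 were higher and 3 lower in C4-2, and 3 were higher and 4 lower in MR49F against C4-2. TNFRSF10B, the death receptor DR5 and a target of CHOP, was higher in MR49F (0.45), BOK was lower in MR49F (-1.43) and higher in C4-2 (0.98), MAP3K5 (ASK1) was lower in C4-2 (-1.04) and TMBIM6 was higher in C4-2 (0.50). Of 12 heat shock genes that act outside the ER, kept for contrast and including the mitochondrial chaperonins HSPD1 and HSPE1, 6 were higher and 2 lower in MR49F, 5 were higher and 4 lower in C4-2, and 3 were higher and 3 lower in MR49F against C4-2. HSPH1 was higher in both derivatives (0.68 in MR49F and 0.95 in C4-2), HSPA8 and HSPD1 were higher in MR49F (0.52 and 0.21) and lower in C4-2 (-0.29 and -0.44), and HSPB1 was lower in MR49F (-0.89) and higher in C4-2 (1.10).

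**Figure D4:**
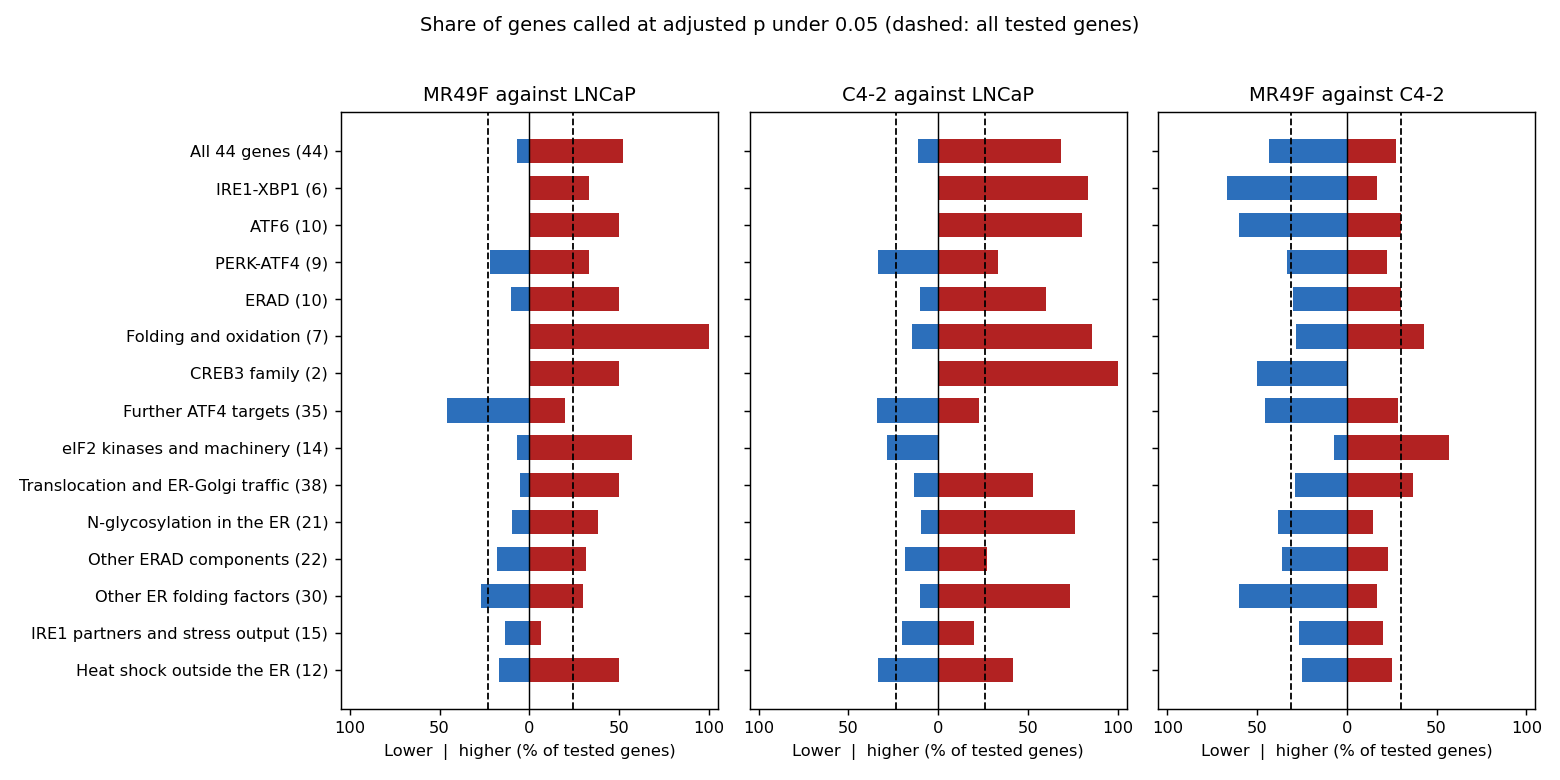
Percent of tested genes called higher (red, right) and lower (blue, left) in each branch and each further list, with the number of tested genes in parentheses, for the 3 comparisons. Dashed lines mark the shares over all 15407 tested genes, 24.1% higher and 22.8% lower in MR49F against LNCaP. Of the folding and oxidation genes, 7 of 7 were higher and 0 lower there, and all but ERO1B have exons that overlap another gene.

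Tested genes within 1 Mb were counted for each of the 44 genes. Of the 23 genes higher in MR49F than in LNCaP, 3 had at least as many neighbours called higher as not, namely ERO1A (7 of 9), ASNS (6 of 10) and EDEM1 (2 of 4). The median log2 fold change of these neighbours was 0.35 around ERO1A, 0.44 around ASNS and 0.26 around EDEM1. PDIA6 had 9 of 19 neighbours higher, with a median of 0.39. MANF had 6 of 29 and HSPA5 2 of 12 neighbours higher. Of the 30 genes higher in C4-2 than in LNCaP, 5 had at least as many neighbours called higher as not, namely ATF6B on chromosome 6 (42 of 66, median 0.40), DNAJC3 (4 of 4, median 0.52), DNAJB9 (6 of 8, median 0.37), DNAJB11 (9 of 14, median 0.61) and PDIA5 (11 of 17, median 0.49). TRIB3, lower in C4-2, had 11 of 19 neighbours lower. Of the 19 genes lower in MR49F than in C4-2, 9 had at least as many neighbours called lower as not, XBP1 (12 of 24) and DERL1 (5 of 8) among them. How many of all tested genes meet this rule was not counted, so these numbers have no share over all genes beside them. Several windows held few neighbours. The part of neighbouring genes in these differences was not tested.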

How the data were processed

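Poly(A) RNA of MR49F, C4-2 and LNCaP cells (3 biological replicates each) had been sequenced as paired reads from a stranded kit, per the labels. The authors deposited raw counts, whole numbers for each Ensembl gene. Tools in the submitters' processing notes, given without roles, are HTSeq 0.6.1, TopHat2, FastQC 0.11.3 and edgeR 3.12.1, with the build GRCh38.p12. Annotation release, strand setting and filters were not given in the sources used here, so counts of overlapping genes and near-identical copies are uncertain. A further 3 columns matched no sample title and were not used. Of 57992 entries, all with a gene ID, 57388 matched GENCODE 29 (GRCh38; coordinates, exon lengths and overlaps) and 56948 a symbol.

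Counts were tested with the quasi-likelihood test of edgeR 4.0.16 in R 4.3.3 (robust, TMM, filterByExpr by line), with 1 mean for each of the 3 lines over 9 libraries, 6 residual degrees of freedom and a common biological coefficient of variation of 0.0817. Benjamini-Hochberg adjustment ran over all 15407 tested genes, and an adjusted p under 0.05 made a call. SE is the absolute log2 fold change over the square root of F. Replicates of a line correlated at 0.987 to 0.993 in log2 CPM across genes, and no pair agreed within counting noise (chi-square per degree of freedom 1.49 to 24.0). The labels do not say whether replicates were separate cultures, so p-values measure the spread between these samples.

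The test was checked on simulated counts for 15407 genes: in MR49F against LNCaP recovery was 68.7% at 1.5-fold, 83.6% at 2-fold and 95.5% at 4-fold, with 13 unchanged genes called. Only a small part of the genes was changed there, all with a mean of at least 1 CPM. Far more genes were called in the data, so these rates need not hold for them. Alternatives were DESeq2 1.42.0, limma-voom 3.58.1, RLE scaling, upper-quartile scaling, no scaling factors (chosen after seeing the data), a stricter count filter (1 CPM in at least 3 libraries) or none, a 1.5-fold test, a replicate block, fits to the 6 libraries compared, C4-2 replicate 1 thinned to 17.6%, and each library left out. The 44 genes, the branches, the 8 further lists and the 5 marker lists were chosen with earlier results of these data known. Values of every library are given for the sensors and their main outputs and for up to 3 called genes per branch and comparison, by size of log2 fold change and a mean of at least 5 CPM, and those of a few other genes were added after their values were seen. Further lists name the 4 genes with the lowest adjusted p.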

Additional observations from a re-analysis of the deposited data

Results flagged for a closer look

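ERO1B was singled out because its called differences from LNCaP pointed in opposite directions in the 2 derivatives, with a log2 fold change of 0.51 in MR49F and -0.31 in C4-2. The direct comparison of MR49F with C4-2 gave a log2 fold change of 0.81, a value that follows from choosing a gene with opposite signs and is given as a description. The C4-2 value rests on a call that was lost when any 1 of 4 libraries was left out, and it was -0.17 without C4-2 replicate 1.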

How the results depend on the processing

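Tested against a 1.5-fold change, 3 genes were higher and 0 lower in MR49F against LNCaP, 9 were higher and 0 lower in C4-2 against LNCaP, and 1 was higher and 7 were lower in MR49F against C4-2. The 3 genes lower in MR49F against LNCaP became 6 without scaling factors and 6 with the 6 libraries compared. With single libraries left out, 20 to 24 genes were higher and 3 to 6 lower in MR49F against LNCaP, 27 to 31 higher and 3 to 5 lower in C4-2 against LNCaP, and 11 to 14 higher and 17 to 21 lower in MR49F against C4-2. Calls lost without some library numbered 3 of 26, 6 of 35 and 7 of 31. Under RLE and upper-quartile scaling, DESeq2, limma-voom, both count filters and the thinning of C4-2 replicate 1, these counts stayed within 1.5 times the reported ones. Replicate numbers did not pair the libraries (correlation of deviations -0.0832 to 0.0562 for equal numbers), and the replicate block gave 23 higher and 3 lower, 29 and 5, and 12 and 19.

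Signs turned only in genes without a call in the reported fits. With settings other than a library left out, SYVN1 in MR49F against LNCaP had -0.01 with upper-quartile scaling and without a count filter, -0.07 without scaling factors and -0.0003 with the 6 libraries compared, and SEL1L had -0.04 without scaling factors. HSP90B1 in C4-2 against LNCaP had -0.01 without scaling factors. In MR49F against C4-2, HSPA5 had -0.01 with upper-quartile scaling and without a count filter, and DERL3 had 0.01 with C4-2 replicate 1 thinned. With single libraries left out, values in MR49F against LNCaP ran from -0.13 to 0.01 for TRIB3, from -0.11 to 0.23 for PPP1R15A, from -0.07 to 0.02 for PPP1R15B and from -0.06 to 0.15 for SYVN1, and ASNS in C4-2 against LNCaP ran from -0.09 to 0.03. In MR49F against C4-2 the ranges were -0.04 to 0.09 for HSPA5, -0.38 to 0.12 for CHAC1, -0.17 to 0.04 for SYVN1, -0.01 to 0.17 for PDIA3 and -0.16 to 0.05 for P4HB. The cause was not tested.

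Depth limits the lowest genes most: CHAC1, PPP1R15A and DERL3 lay under 12 CPM in every library.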
